A study of Mus musculus with 5 samples.

Results

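The 9 genes described here carry long-chain fatty acids into the hepatocyte, bind them in the cytosol and join them to coenzyme A. They were taken by symbol, as the long-chain acyl-CoA synthetases Acsl1, Acsl3, Acsl4 and Acsl5, the fatty acid transport proteins Slc27a2, Slc27a4 and Slc27a5, the liver fatty acid binding protein Fabp1 and the membrane receptor Cd36. All 9 were found among the 13966 gene symbols of the deposited table. RNA came from 5 libraries of mouse hepatocytes (outbred stock ICR). Every mouse received a probe whose fluorescence reports fatty acid oxidation (FAO), and liver cells were parted by cell sorting on that signal. The libraries labelled with bezafibrate, a drug that activates peroxisome proliferator-activated receptors (PPARs), are FAO-negative, FAO-positive and FAO-high and are called bezafibrate negative, positive and high. Those labelled as controls are called control positive and control negative. Each of the 5 groups is 1 library, so no value below has a replicate spread and every difference describes these libraries. How bezafibrate was given, its dose and duration, and the number, age and sex of the mice are not stated in the labels, and treatment cannot be told apart from mouse.

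Long-chain fatty acids reach the liver from adipose tissue and from lipoproteins, and enter hepatocytes by diffusion and with the help of membrane proteins. Fabp1 carries them through the cytosol, and acyl-CoA synthetases trap them as acyl-CoA, the form used for oxidation, for triglyceride and phospholipid synthesis and for bile acid side-chain metabolism. Several of these genes are known targets of PPARalpha, which binds DNA with the retinoid X receptor at a direct repeat of the half-site AGGTCA with 1 base between the copies.

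The libraries held 5056884 to 7146578 recovered reads, and values are given as normalised read counts. Their RNA make-up was unlike. The ribosomal RNA precursor gene Rn45s held 10.5% to 18.5% of reads in the bezafibrate libraries, against 34.8% and 36.3% in control positive and control negative. The hepatocyte label fitted its markers, of which 5 of 6 listed were matched. Their summed normalised read count was 63650 to 90358 in the bezafibrate libraries and 36789 to 38096 in the control libraries. Most of each sum came from a single marker. Of the others, Apoa1 had 4259 to 4737 in bezafibrate and 4333 to 4394 in control libraries, and Cps1 5562 to 6141 and 5547 to 5602. Ttr had 2459 to 3166 in bezafibrate and 2019 to 2042 in control libraries, and Serpina1a 2997 to 4126 and 1742 to 1838. Marker sums of other cells were at most 45.0 for sinusoidal endothelium (9 of 10 matched), 9.06 for macrophages (7 of 11), 6.47 for adipocytes (3 of 7), 113 for stellate cells (9 of 10) and 51.7 for cholangiocytes (5 of 7). The stellate cell sum stood at 31.2 to 42.4 in bezafibrate and 105 to 113 in control libraries, most of it Reln (28.5 to 29.8 in bezafibrate and 93.4 to 106 in control libraries). The other 8 stellate markers summed to 4.80, 2.68 and 12.5 in bezafibrate negative, positive and high and to 7.11 and 11.1 in control positive and negative. Erythroid genes reached 45.5 (2 of 6), platelet genes 8.62 (2 of 5) and the neutrophil gene matched (1 of 5) 1.58, while 0 of 7 T and NK cell markers and 0 of 5 B cell markers were matched. In bulk samples such as these, fewer cells of a type and less RNA per cell cannot be told apart.

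Fabp1 (chromosome 6, 71199827 to 71205023, GRCm38, plus strand, 4 exons) encodes the main cytosolic fatty acid carrier of liver. Bezafibrate negative hepatocytes had a normalised Fabp1 read count of 1419.5, bezafibrate positive 1114 and bezafibrate high 964, against 484 in control positive and 447 in control negative hepatocytes. Bezafibrate was set against control among FAO-negative cells and, apart from that, among FAO-positive cells. Fabp1 was 3.18-fold higher in bezafibrate negative than in control negative hepatocytes (95% counting interval 3.03 to 3.33) and 2.30-fold higher in bezafibrate positive than in control positive hepatocytes (2.20 to 2.42). Intervals of ratios and shares are exact (Clopper-Pearson), rest on recovered reads and cover counting error only.

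Cd36 (chromosome 5, 17781690 to 17888801, minus strand, 15 exons), a scavenger receptor known for fatty acid uptake in muscle, adipocytes, macrophages and endothelium, had the widest range of the 9. It was counted in 86, 39 and 59 reads in bezafibrate negative, positive and high hepatocytes, against 6 reads in control positive and 2 in control negative hepatocytes. Normalised, the same libraries had 11.5, 6.15 and 7.86, against 1.29 and 0.411. Cd36 was the lowest of the 9 per kilobase in each library. The ratio was 27.9 among FAO-negative cells (7.50 to 234) and 4.75 among FAO-positive cells (1.998 to 13.7), both resting on the few control reads. Cd36 reached the minimum mean for analysis, 5.02, through the bezafibrate libraries alone, so it had to differ to be analysed. Endothelial markers in bezafibrate negative summed to 25.3, in positive to 31.7 and in high to 45.0, and to 27.4 and 38.6 in control positive and negative. The highest of that list, Stab2, had 12.7 to 22.1 in bezafibrate libraries and 13.4 and 20.7 in control positive and negative. Pecam1 was at most 0.411 in any library, Tek was at 0 in control negative and Cdh5 at 0 in control positive. Macrophage markers summed to 4.67, 4.57 and 9.06 in bezafibrate negative, positive and high, and to 8.41 and 4.93 in control positive and negative, with Cd5l at 0 in bezafibrate positive and control negative. Adipocyte markers summed to 1.999 to 3.47 in bezafibrate and 5.54 to 6.47 in control libraries, with Fabp4 at 0 in bezafibrate high and control negative. The part of these cells in the Cd36 values was not tested.

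**Figure D1:**
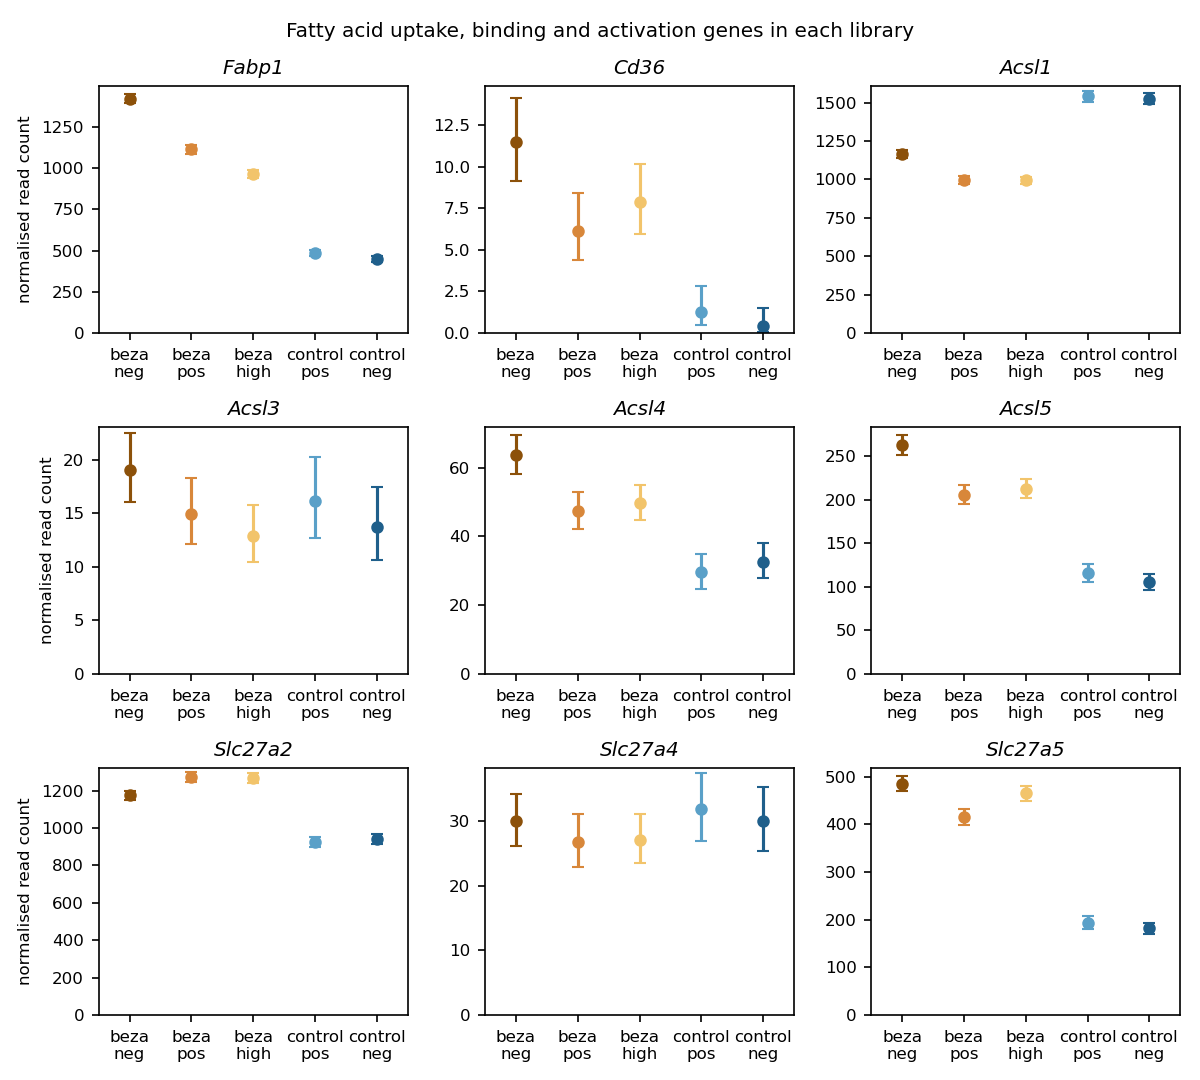
Normalised read count (vertical axes from 0, linear) of each of the 9 genes in bezafibrate negative, positive and high and control positive and negative libraries; points are single libraries and bars 95% Poisson counting intervals. Fabp1 had 964 to 1419.5 in bezafibrate and 447 to 484 in control libraries, and Acsl1 had 995 to 1166 and 1526 to 1542.

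Promoter windows from RefSeq (GRCm38.p6, 250 bases before to 50 after a start) were found for 8 of the 9 genes, with a second start for Acsl1; the gene not matched was Slc27a5. They were searched on both strands for the PPAR element, AGGTCANAGGTCA, counting mismatches over its 12 fixed letters; no other motif was searched. The best match of each window is listed from the fewest mismatches to the most, and no relation to the treatment ratios was tested. Each is written 5′ to 3′ in the orientation of the element, and capitals mark letters that match it.
Fabp1: AGGcCAtAGGTCA
Cd36: AaGTCAgAGGcCA
Slc27a2: AGGTCAaAGGcgt
Acsl4: gGGTCgcAGGTCg
Acsl5: gGGTCAcAGaaCA
Acsl1 second window: gGGctAaAGGTaA
Acsl1 first window: cGGcCggAGGggA
Acsl3: gGGgCgcAGGgCg
Slc27a4: AGGcCcaAGtagA

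At most 2 mismatches were found in the windows of Fabp1 (1 mismatch) and Cd36 (2 mismatches), and the other 7 windows had 3 to 5. Of all 32851 windows, 3.86% held a match with at most 2 mismatches and 0.554% one with at most 1; of the 8827 windows of genes analysed, 3.16% and 0.589% did. A match with at most 3 mismatches was held by 24.6% of all windows and 21.3% of those of genes analysed. The Fabp1 element lay at chr6:71199812-71199824, 67 to 55 bases before the RefSeq start, on the strand opposite to the gene. Its surroundings up to the first exon base of GENCODE, chr6:71199729-71199826 on the plus strand, are given with the element, read on the gene's strand, in capitals.
Fabp1 upstream: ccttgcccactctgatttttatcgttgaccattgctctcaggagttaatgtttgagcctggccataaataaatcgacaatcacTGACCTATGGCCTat
The Cd36 element lay at chr5:17835947-17835959, 63 to 51 bases before the start used by RefSeq, and also on the opposite strand. Its 150 bases before that start, chr5:17835897-17836046 read on the minus strand, lie within the gene's GENCODE span and overlap 0 bases of its exons.
Cd36 upstream: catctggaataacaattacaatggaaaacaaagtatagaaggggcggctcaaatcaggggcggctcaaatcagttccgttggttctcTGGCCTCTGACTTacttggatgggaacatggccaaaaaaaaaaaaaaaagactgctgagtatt
A match is a description of the sequence, and binding was not measured in these samples.

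Among the synthetases, Acsl1 was lower and Acsl4 and Acsl5 were higher in bezafibrate hepatocytes. Acsl1 (chromosome 8, 46471037 to 46536051, plus strand) encodes the main long-chain acyl-CoA synthetase of liver. Bezafibrate negative hepatocytes had a normalised Acsl1 read count of 1166, bezafibrate positive 995 and bezafibrate high 996, against 1542 in control positive and 1526 in control negative hepatocytes. The ratio was 0.765 among FAO-negative cells (0.741 to 0.789) and 0.645 among FAO-positive cells (0.624 to 0.668). On the log2(value + pseudocount) scale the differences were -0.39 and -0.63, and they ranged from -0.65 to -0.15 and from -0.75 to -0.43 over 6 ways of scaling the libraries. Ehhadh, a peroxisomal beta-oxidation enzyme and known PPARalpha target, stood at 1813, 1268 and 1535 in bezafibrate negative, positive and high against 87.5 and 72.9 in control positive and negative.

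Acsl5 (chromosome 19, 55251938 to 55297720, plus strand), a synthetase of mitochondria and endoplasmic reticulum, had 263, 206 and 213 normalised read counts in bezafibrate negative, positive and high hepatocytes, against 116 in control positive and 105 in control negative hepatocytes. Acsl5 was 2.496 times as high among FAO-negative cells (2.26 to 2.76) and 1.78 times among FAO-positive cells (1.61 to 1.97). Acsl4 (chromosome X, 142317993 to 142390535, minus strand), which prefers arachidonate and other polyunsaturated fatty acids, had 63.6, 47.3 and 49.7 in bezafibrate negative, positive and high, against 29.5 in control positive and 32.6 in control negative. It was 1.95-fold (1.62 to 2.35) and 1.60-fold higher (1.30 to 1.97) in the negative and positive gates.

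Acsl3 (chromosome 1, 78657825 to 78707743, plus strand), a synthetase of the endoplasmic reticulum and lipid droplets, had overlapping values. Bezafibrate negative had 19.1, bezafibrate positive 15.0 and bezafibrate high 12.9, against 16.2 in control positive and 13.8 in control negative hepatocytes. The ratio was 1.39 among FAO-negative cells (1.03 to 1.88) and 0.926 among FAO-positive cells (0.677 to 1.27). Acsl3 shares 244 exon bases with Utp14b on the same strand, and Utp14b had 18.3, 19.5 and 22.4 in bezafibrate negative, positive and high against 39.2 and 38.4 in control positive and negative, so the split of reads between them is uncertain. Acsl5 shares 404 exon bases with Zdhhc6 on the opposite strand, which had 23.2 to 28.8 in bezafibrate and 21.4 to 24.1 in control libraries. On the opposite strand, Acsl1 shares 1039 exon bases with Gm45244 and Slc27a2 shares 419 with Gm26697; no label says whether the counting used strand.

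The make-up of synthetase RNA within a library does not depend on the scaling between libraries. Acsl1 held 77.1% (76.4 to 77.9), 78.8% (77.9 to 79.7) and 78.3% (77.5 to 79.1) of the reads of the 4 Acsl genes in bezafibrate negative, positive and high, against 90.5% (89.9 to 91.2) in control positive and 91.0% (90.3 to 91.6) in control negative. Acsl5 took 17.4%, 16.3% and 16.7% in bezafibrate negative, positive and high, against 6.79% in control positive and 6.28% in control negative. The Acsl4 share was 4.21%, 3.74% and 3.91%, against 1.73% and 1.95% in the same libraries. Divided by transcript length, Acsl1 held 79.2% to 80.7% of the family in bezafibrate libraries and 91.5% to 91.9% in control libraries. Summed over the family, the normalised read count was 1512, 1263 and 1271 in bezafibrate negative, positive and high hepatocytes, and 1703 and 1677 in control positive and negative hepatocytes.

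**Figure D2:**
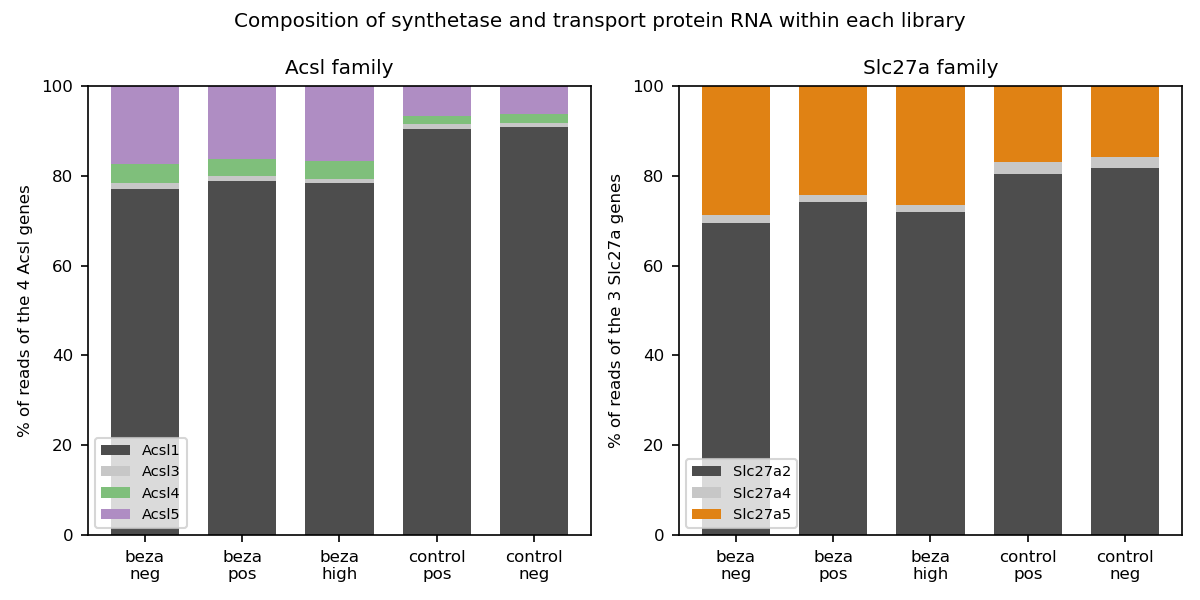
Share (%) of the reads of 4 Acsl genes (left) and 3 Slc27a genes (right) held by each gene in bezafibrate negative, positive and high and control positive and negative libraries; each bar is 1 library. Acsl1 holds 77.1% to 78.8% of its family's reads in bezafibrate libraries and 90.5% to 91.0% in control libraries, and Slc27a5 holds 24.2% to 28.7% and 15.8% to 16.9%.

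Of the transport proteins, Slc27a5 was higher in bezafibrate hepatocytes, Slc27a2 was higher by less, and Slc27a4 overlapped between the treatments. Slc27a5 (chromosome 7, 12988346 to 12998192, minus strand) is a liver enzyme that takes up fatty acids and activates bile acids with coenzyme A. It had 486, 416 and 465 normalised read counts in bezafibrate negative, positive and high hepatocytes, against 194 in control positive and 182 in control negative hepatocytes. It was 2.67-fold higher among FAO-negative cells (2.48 to 2.88) and 2.14-fold higher among FAO-positive cells (1.99 to 2.32). Slc27a2 (chromosome 2, 126552407 to 126588243, plus strand), which activates very long-chain and branched fatty acids, had 1175, 1273 and 1267 in bezafibrate negative, positive and high, against 924 in control positive and 941 in control negative. The folds were 1.25 (1.20 to 1.29) and 1.38 (1.33 to 1.43) in the negative and positive gates. Slc27a4 (chromosome 2, 29802634 to 29817522, plus strand), known from intestine and skin, had 30.0, 26.8 and 27.0 in bezafibrate negative, positive and high, against 31.9 in control positive and 30.0 in control negative. Its ratios, 1.001 (0.809 to 1.24) and 0.840 (0.670 to 1.05), had intervals that include 1. Within the 3 genes, Slc27a5 held 28.7%, 24.2% and 26.4% of reads in bezafibrate negative, positive and high, against 16.9% in control positive and 15.8% in control negative.

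**Figure D3:**
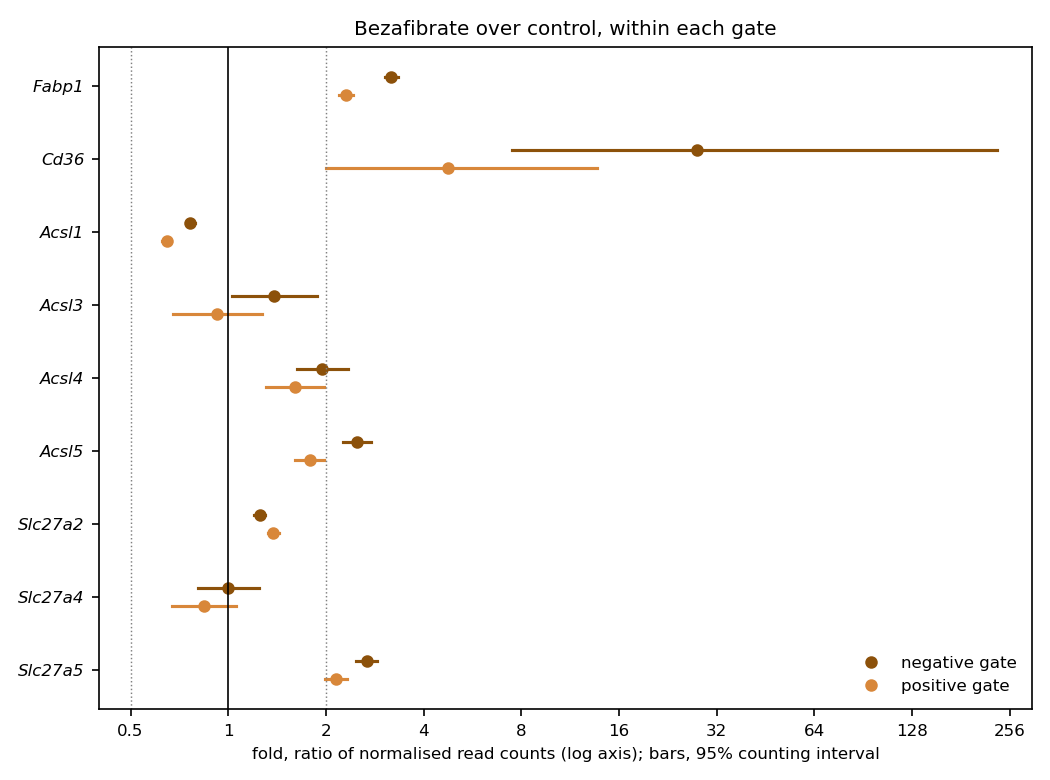
Ratio of normalised read counts, bezafibrate over control (log axis), for each gene in the negative and positive gates; bars are 95% counting intervals and dotted lines mark 2-fold. Fabp1, Cd36 and Slc27a5 pass 2-fold in both gates and Acsl5 among FAO-negative cells, while Acsl1 lies below 1 in both.

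Of the 9 genes, 4 reached 2-fold higher and 0 reached 2-fold lower in bezafibrate negative against control negative hepatocytes, where 11.6% of the 8973 genes analysed were higher and 7.13% lower (18.7% in all). Among FAO-positive cells 3 were higher and 0 lower, where 6.23% of genes were higher and 3.53% lower (9.76% in all). The median log2 difference of the 9 was 0.94 among FAO-negative and 0.66 among FAO-positive cells, against 0.02 and 0.00 over all genes analysed. Without Cd36, 3 of 8 and 2 of 8 genes passed 2-fold, with medians of 0.69 and 0.56. When libraries were scaled by column totals the median of all genes moved to 0.25 and 0.20, and when scaled by totals without Rn45s to -0.22 and -0.11. Relative to the median of all genes in the main scaling, Fabp1 stood at 1.64 and 1.20, Slc27a5 at 1.39 and 1.09, Acsl5 at 1.29 and 0.82, and Acsl1 at -0.41 and -0.64 in the negative and positive gates.

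A model with additive gate and treatment terms was fitted to 4 of the libraries (all but bezafibrate high) across all genes with limma. Its 1 residual degree of freedom is the gate by treatment difference, so its p-values are no test between mice. For treatment, 6 of the 9 genes had a Benjamini-Hochberg adjusted p under 0.05, where 45.3% of the 8973 genes did; edgeR also called 6, against 45.8% of genes. Without Cd36, which had to differ to be analysed and whose p is given as a value only, both tools called 5 of 8. The 6 in limma were Slc27a5 (log2 difference 1.26, standard error 0.16, limma adjusted p = 2.04e-13), Fabp1 (1.43, 3.39e-13), Acsl5 (1.07, 8.69e-11), Cd36 (2.39, 1.74e-10), Acsl4 (0.80, 7.37e-06) and Acsl1 (-0.51, 0.0275). Slc27a2, with an adjusted p of 0.0845, Acsl3 and Slc27a4 did not pass in limma. Scaled by column totals, Acsl1 no longer passed (limma adjusted p = 0.236) and Slc27a2 did (0.00478), and with no filter on low values Acsl1 was at 0.0549. Over the other alternatives the limma and edgeR adjusted p of Acsl1 lay between 0.0263 and 0.0328.

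The treatment ratio was larger among FAO-negative than among FAO-positive cells for 8 of the 9 genes, where it was for 52.9% of all genes analysed. Divided by the ratio among FAO-positive cells, that among FAO-negative cells was 1.38 for Fabp1 (1.29 to 1.47), 1.40 for Acsl5 (1.22 to 1.61), 1.25 for Slc27a5 (1.12 to 1.39) and 1.18 for Acsl1 (1.13 to 1.24), with normal intervals from the read counts on the log scale. For Acsl1, whose ratios lie below 1, the ratio among FAO-negative cells was the nearer to 1. Cd36 stood at 5.87 (1.13 to 30.4), resting on its few control reads. Slc27a2 had the opposite order at 0.907 (0.861 to 0.955). The intervals of Acsl3, Acsl4 and Slc27a4 include 1. Rn45s held 10.5% of reads in bezafibrate negative and 18.5% in bezafibrate positive, against 36.3% in control negative and 34.8% in control positive, and its part in this difference was not tested.

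Between the bezafibrate gates, most of these genes were lower in the positive and high libraries than in the negative library. In positive against negative hepatocytes 8 of 9 log2 differences were below 0, where 51.6% of all genes were, with a median of -0.33 against -0.01 over all genes. Of the 9, 0 passed 2-fold, where 0.457% of all genes did (0.245% higher and 0.212% lower). Fabp1 was 0.785-fold (0.762 to 0.809), Acsl1 0.853-fold (0.826 to 0.881), Acsl5 0.782-fold (0.729 to 0.840), Acsl4 0.744-fold (0.641 to 0.861), Slc27a5 0.855-fold (0.813 to 0.900) and Cd36 0.536-fold (0.357 to 0.792). Acsl3 (0.600 to 1.03) and Slc27a4 (0.728 to 1.10) had intervals that include 1. So 7 of the 9 intervals left out 1, where 32.3% of all genes' intervals did, and these intervals are narrower for genes with more reads. Slc27a2 was the exception at 1.08-fold (1.05 to 1.12). Rn45s took 18.5% of reads in bezafibrate positive against 10.5% in bezafibrate negative. Scaled by totals without Rn45s the median of all genes moved to 0.13 and that of the 9 to -0.19.

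The high gate, compared with the same negative library, had 8 of 9 differences below 0, where 53.0% of genes were, and a median of -0.30 against -0.02. Fabp1 was 0.679-fold (0.659 to 0.700) and Acsl3 0.678-fold (0.518 to 0.884), the second on 97 against 143 reads. Acsl1 was 0.854-fold (0.828 to 0.881), Acsl4 0.782-fold (0.681 to 0.897), Acsl5 0.810-fold (0.758 to 0.866) and Cd36 0.686-fold (0.484 to 0.966), while the interval of Slc27a4 includes 1 (0.742 to 1.10). Here 29.2% of all genes' intervals left out 1. Slc27a2 was 1.08-fold (1.05 to 1.11) and Slc27a5 0.957-fold (0.914 to 1.003), and Slc27a5 was at or above 1 under column-total scaling or with Rn45s left out of the totals. Here 0 of the 9 passed 2-fold, where 0.524% of genes did (0.223% higher and 0.301% lower). In high against positive hepatocytes 0 passed, where 0.29% of genes did (0.156% higher and 0.134% lower). High against positive, Fabp1 was 0.866-fold (0.838 to 0.895) and Slc27a5 1.12-fold (1.06 to 1.18), and the other 7 intervals include 1, where 16% of all genes' intervals left out 1. Fabp1 was lower at each step of the 3 bezafibrate gates, with 1419.5 in negative, 1114 in positive and 964 in high. Both the positive and the high gate are set against 1 negative library, so these comparisons are not separate. The PPARalpha response genes had medians of -0.34 in positive and -0.24 in high against negative, with 7 of 10 below 0 in each. Other lists also lay mostly below 0 in positive against negative. Such were uptake proteins with lipoprotein receptors and lipases (7 of 8), short- and medium-chain synthetases (7 of 9), bile acid and phytanic acid genes (5 of 6) and carnitine transfer (5 of 7). Acyl-CoA binding proteins (3 of 6), glycerolipid acylation (6 of 12), thioesterases (4 of 8) and nuclear receptors (4 of 11) did not.

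Among control hepatocytes, 1 of the 9 genes had an interval that left out 1, where 9.34% of all genes analysed did. Fabp1 was 1.08-fold higher in the positive than in the negative library (1.02 to 1.15), with 484 against 447, and the intervals of the other 8 genes include 1. Cd36, at 6 reads in control positive against 2 in control negative, gave a ratio of 3.15 (0.563 to 31.9) and was the 1 member past 2-fold, where 0.747% of genes passed (0.379% higher and 0.368% lower). The median of the 9 was 0.09, against 0.01 over all genes, and 7 were above 0 where 52.1% of genes were. Pericentral marker genes summed to 1698 in control positive against 1358 in control negative, and periportal marker genes to 7075 against 7639. Most of the pericentral sum was Cyp2e1, at 1007 against 805. In bezafibrate negative, positive and high the pericentral sum was 2250, 1886 and 1866, and the periportal sum 8567, 8805 and 8894. Cyp2e1 was again most of the pericentral sum, at 1608, 1293 and 1274. The periportal genes were split. Cyp2f2 (2544, 1880 and 2103), Hal, Gls2, Hsd17b13 and Cdh1 were lower in bezafibrate positive and high than in negative. Ass1 (1031, 1668 and 1276), Pck1 (3159, 3396 and 3595), Sds, Sdsl and Uroc1 were higher. The gate term of the additive fit called 0 of the 9 genes in limma, where 0.0892% of genes were called, and 0 in edgeR, where 0.123% were; at an unadjusted p under 0.05 limma and edgeR again had 0 of the 9, where 3.45% and 4.22% of genes passed.

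**Figure D4:**
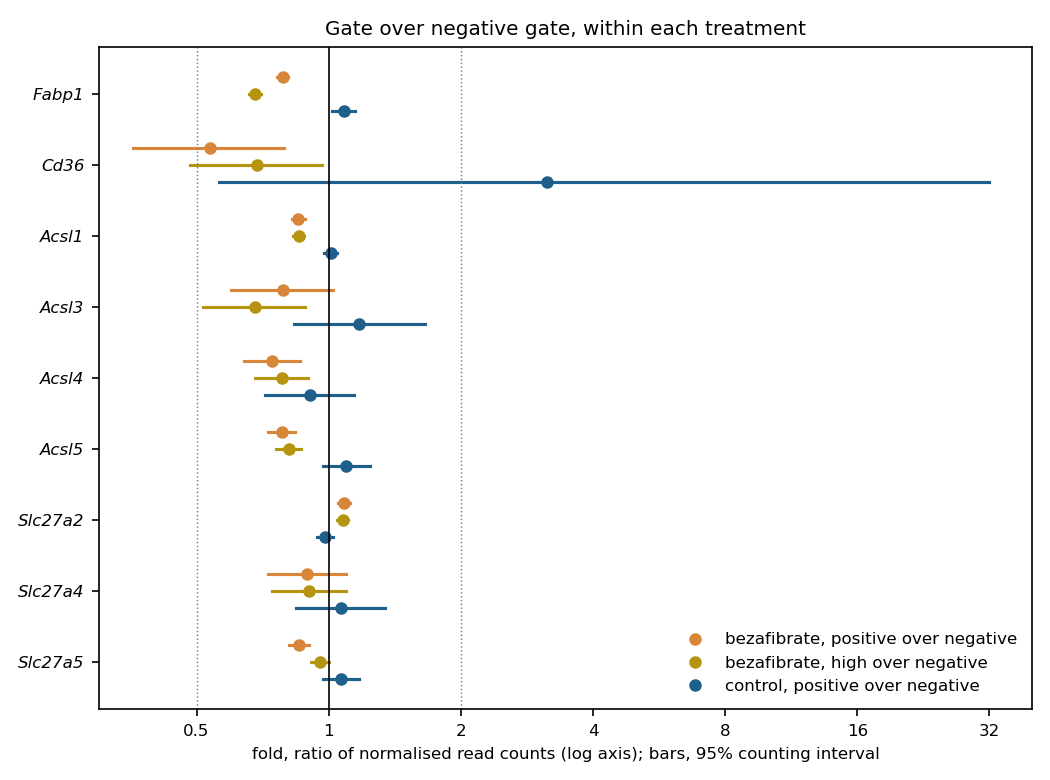
Ratio of normalised read counts to the negative gate (log axis), for the positive and high gates of bezafibrate hepatocytes and the positive gate of control hepatocytes; bars are 95% counting intervals and dotted lines mark 2-fold. For Fabp1 both bezafibrate ratios, 0.785 and 0.679, lie below 1 and the control ratio, 1.08, above 1.

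Per kilobase of the principal GENCODE transcript, the order of levels changed with treatment near the top. Fabp1 was highest in each library, at 2567, 2015 and 1744 normalised read counts per kilobase in bezafibrate negative, positive and high and 875 and 808 in control positive and negative. Slc27a2 came next in the bezafibrate libraries, at 403, 436 and 434, followed by Acsl1 at 299, 255.2 and 255.5. In control positive and negative hepatocytes Acsl1, at 396 and 391, stood above Slc27a2, at 317 and 323. Slc27a5 followed these 3 in each library, at 182 to 212 in bezafibrate and 79.4 to 84.7 in control libraries, and then Acsl5, at 48.5 to 62.0 and 24.8 to 27.2. Acsl4 stood above Slc27a4 in bezafibrate libraries and below it in control libraries, where the difference was within counting error in control negative (ratio 1.20, 0.949 to 1.51). Acsl3 and Cd36 were the lowest. With the union of all exons as length, which is 10483 bases for Acsl1 against 3897 for its principal transcript, Acsl1 stood below Slc27a2 in control libraries and below Slc27a2 and Slc27a5 in bezafibrate libraries.

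The genes with profiles most like those of 4 members were found by the root mean square difference of centred log2 values over the 5 libraries, among 2415 genes with a mean of at least 50. For Acsl5 they were Apon (0.0147), Pdk2 (0.0289) and Cxadr (0.0304), and for Acsl1 Fh1 (0.0433), Hipk2 (0.0455) and St3gal1 (0.0462). For Fabp1 they were Hsd3b3 (0.0695), Serpina6 (0.0699) and Lamp2 (0.0704), and for Cd36 Aadac (0.153), Akr1c6 (0.228) and Prdx1 (0.229). These 4 members were picked after their values were seen. The Cd36 profile rests on 6 reads in control positive and 2 in control negative. Cd36 was analysed only through its bezafibrate values, so its nearest genes had to be higher in bezafibrate libraries.

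The genes around uptake and activation were mixed. Of the remaining synthetases, transport and binding proteins 7 of 14 listed were matched and 3 analysed. Fabp5, a binding protein of skin and other epithelia, had 34.9, 36.3 and 41.4 in bezafibrate negative, positive and high against 18.5 and 14.4 in control positive and negative. Fabp2, the intestinal form, had ratios of 3.37 (2.20 to 5.35) and 1.78 (1.21 to 2.66) in the negative and positive gates, and Slc27a1 had ratios of 0.694 (0.450 to 1.07) and 0.891 (0.544 to 1.47). Fabp5 and Fabp2 passed 2-fold among FAO-negative cells and 0 genes of the list did among FAO-positive cells.

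Acyl-CoA binding proteins had 2 of 6 genes analysed at least 2-fold higher among FAO-negative cells and 1 among FAO-positive cells. Dbi, the cytosolic acyl-CoA binding protein, had 169.96, 100.2 and 104 in bezafibrate negative, positive and high against 34.9 and 30.8 in control positive and negative, 5.52-fold higher among FAO-negative cells (4.66 to 6.58). Scp2, a peroxisomal thiolase and lipid carrier, was 1.4999-fold and 1.20-fold higher, and Acbd6 0.668-fold and 0.770-fold. Among short- and medium-chain synthetases 1 of 9 passed among FAO-negative cells, Acsm2 at 2.48-fold (1.56 to 4.12), and 0 among FAO-positive cells. Acsf2 was 1.37-fold and 1.13-fold higher, and Aacs, which activates acetoacetate, was 0.636-fold and 0.733-fold.

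Lipoprotein receptors, lipases and other uptake proteins had 3 of 8 past 2-fold higher and 1 lower among FAO-negative cells, against 2 higher and 1 lower among FAO-positive cells. Lpl, which releases fatty acids from triglyceride in lipoproteins, had 283, 215 and 237 in bezafibrate negative, positive and high against 82.3 and 82.5 in control positive and negative. Mfsd2a, a transporter of lysophosphatidylcholine, ran the other way at 27.3, 37.7 and 36.2 against 83.2 and 115, while Lrp1, a receptor of lipoprotein remnants, was 1.01-fold and 0.935-fold. Bile acid conjugation and phytanic acid genes, partners of Slc27a5 and Slc27a2, had 2 of 6 past 2-fold higher among FAO-negative and 1 among FAO-positive cells. Baat, which joins activated bile acids to glycine or taurine, was 2.70-fold (2.38 to 3.06) and 2.07-fold higher (1.83 to 2.35). Phyh, the hydroxylase of phytanoyl-CoA, was 2.20-fold and 1.62-fold higher, and Acnat2 0.771-fold and 0.752-fold.

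Of the routes that use acyl-CoA, carnitine transfer had Cpt2 higher and Cpt1b lower by 2-fold for FAO-negative cells, out of 7 genes, and 0 of 7 among FAO-positive cells. Cpt2, the inner mitochondrial transferase, was 2.73-fold (2.22 to 3.39) and 1.57-fold higher, Cpt1a had 366 against 342 among FAO-negative cells and 326 against 325 among FAO-positive cells, and Cpt1b, the muscle form, was 0.475-fold and 0.731-fold. Glycerolipid acylation had 0 of 12 higher and 1 lower in each gate. That gene was Lpin1, a phosphatidate phosphatase, at 595, 754 and 719 in bezafibrate negative, positive and high against 2203 and 2256 in control positive and negative, whereas Gpam, the mitochondrial glycerol-3-phosphate acyltransferase, was 1.85-fold and 1.62-fold higher. Thioesterases, which reverse activation, had 0 of 8 past 2-fold in both gates, with Acot13 at 1.97-fold and 1.43-fold and Acot12 at 0.776-fold and 0.824-fold.

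Among PPARalpha response genes 6 of 10 passed 2-fold higher and 1 lower (Cpt1b) among FAO-negative cells; among FAO-positive cells 4 did so higher and 0 lower. Ehhadh was 24.9-fold and 14.5-fold higher. Of nuclear receptors and co-regulators 1 of 11 was higher and 1 lower in each gate. Ppara had 609, 658 and 656 in bezafibrate negative, positive and high against 289 and 284 in control positive and negative, and Nr1i3, the constitutive androstane receptor, was 0.374-fold and 0.489-fold. Hnf4a, a regulator of hepatocyte identity, was 0.618-fold and 0.680-fold. These counts stand beside 11.6% higher and 7.13% lower over all genes among FAO-negative cells, and 6.23% and 3.53% among FAO-positive cells.

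**Figure D5:**
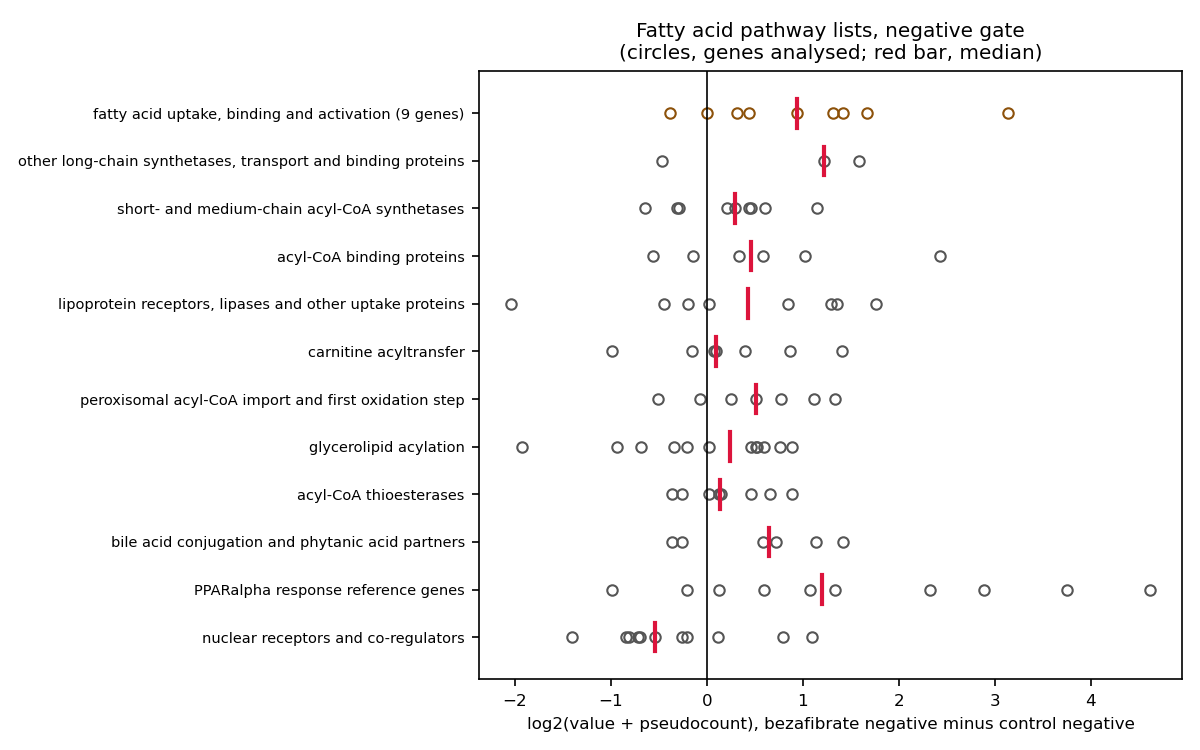
Log2(value + pseudocount) of bezafibrate negative minus control negative hepatocytes (horizontal axis) for the 9 genes and 11 related lists; circles are genes analysed and red bars medians. The 9 genes have a median of 0.94 and run from -0.39 for Acsl1 to 3.14 for Cd36.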

How the data were processed

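RNA was measured in 5 libraries of sorted hepatocytes. Per the labels' protocols, total RNA was depleted of ribosomal RNA and made into directional libraries read from both ends. The tools named, per the submitters' processing notes, are edgeR, RSEM, Bowtie2 and Trimmomatic 0.36, and the build is mm10. The authors deposited a normalised signal per gene symbol. Each value was a whole multiple of the smallest value of its column (100% of values within 0.001 reads), and the multiples were used as recovered reads. edgeR's TMM factors, recomputed from these reads, gave the deposited scaling. Genes with a mean of at least 5.02, which is 5 times the pseudocount of 1.00, were analysed (8973). A gene was called at a plain ratio of 2-fold or more. The treatment and gate terms used limma 3.58.1, with edgeR 4.0.16 on recovered reads and DESeq2 1.42.0 size factors as alternatives, in R 4.3.3. Other steps used Python 3.11.15 and scipy 1.17.1, and were tested on simulated data. Gene spans and lengths came from GENCODE for GRCm38 (mm10), and 96.0% of symbols matched. All 9 members were named. From each related list, the highest gene and the extremes of the negative-gate comparison were named. Markers at or near 0, other markers within a sum, overlapping genes and Vnn1 were also named. The results of 1 gene that this rule names are not reported here. The members and lists were chosen with earlier results of these data known.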

Additional observations from a re-analysis of the deposited data

Results flagged for a closer look

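Fabp1 differed in direction between treatments across the positive and negative gates. It was 0.785-fold in bezafibrate positive against bezafibrate negative hepatocytes (0.762 to 0.809) and 1.08-fold in control positive against control negative hepatocytes (1.02 to 1.15). The ratio of these folds, bezafibrate over control, was 0.725. It is the inverse of the 1.38 given above for the treatment ratios of Fabp1 and no separate result. With 1 library per group the difference itself was not tested between mice. Opposite directions were taken up only where both counting intervals leave out 1, which held for 1 of the 9 genes and for 2.67% of all genes analysed. It was not particular to Fabp1 among the genes named above. Ehhadh was 0.699-fold (0.680 to 0.719) in bezafibrate and 1.20-fold (1.04 to 1.39) in control hepatocytes, positive against negative. Scp2 was 0.858-fold (0.838 to 0.879) and 1.07-fold (1.04 to 1.11). Mfsd2a had the reverse order, 1.38-fold (1.14 to 1.67) and 0.722-fold (0.633 to 0.824). Rn45s held 18.5% of reads in bezafibrate positive against 10.5% in bezafibrate negative, and 34.8% in control positive against 36.3% in control negative, and its part was not tested.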

How the results depend on the processing

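No paired analysis was possible because each group is 1 library and the labels carry no replicate numbers; leaving out a library would leave a comparison without a group. TMM factors recomputed from reads gave the deposited values again. For control positive against negative, the count of 1 member past 2-fold was 0 with a pseudocount of 5 times the main one, with a filter of 20 times, on the log2 scale and without Cd36, the last 2 chosen after seeing the data. At 1.5-fold, 1 member passed in bezafibrate positive against negative and 6 (5 higher and 1 lower) in bezafibrate positive against control positive, where 6.37% and 29.9% of all genes passed. The treatment term called 2697 genes with the filter of 20 times against 4064, and the gate term 14 with no filter and 5 with the filter of 20 times against 8, where fewer or more genes were tested. By column totals, 83.6% of 2-fold calls were higher in bezafibrate negative against control negative and 86.4% in the positive gate, against 61.9% and 63.8% in the main scaling, and 33.8% and 47.5% with totals without Rn45s; the members past 2-fold were then 5 and 4 by column totals, with Acsl4 and then Acsl5 added, and 4 and 2 without Rn45s, where Slc27a5 was at 0.98 on the log2 scale among positive cells; of all genes, 21.6% and 12.4% passed by column totals and 20.1% and 9.3% without Rn45s. Over all genes, 2-fold calls for treatment were 3993 and 3066 with no filter, 911 and 435 with the filter of 20 times and 943 and 411 with the pseudocount of 5 times, against 1680 and 876 in the main setting; between gates they were 1570 to 1876 with no filter against 26 to 67. No member past 2-fold changed sign under the scalings, pseudocounts and filters run. Below 2-fold, 4 of 54 member differences changed sign when scaled by column totals and 4 without Rn45s, among them Slc27a4 in bezafibrate negative against control negative (-0.25 without Rn45s) and Acsl3 in bezafibrate positive against control positive (0.09 by column totals). The low reads of Cd36 and Acsl3 limit what can be said of them.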
